A study of Mus musculus with 16 samples.

Results

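Thymocytes of the DN3 stage were compared between mice that lack protein kinase B alpha (PKBα, encoded by Akt1) and their wild-type littermates. All arrays labelled as DN3 cells were taken, which gave 8 of the 16 arrays in the series, 4 from PKBα-/- and 4 from PKBα+/+ mice. The other 8 arrays hold the next subset, immature CD8 single positive (ISP8) cells, from the same 8 animals. The mice were on a C57Bl/6 background after backcrossing. In littermate pair 1 both animals were females of 3 weeks, in pair 2 males of 3 weeks, in pair 3 males of 2 weeks and in pair 4 females of 5 weeks, so that age and sex were equal within each pair. PKBα was deleted in the germ line and is thus missing in every cell of these mice, thymic stroma included, and nothing else distinguishes the groups in the labels. DN3 cells were sorted as CD25-positive and CD44-negative cells free of the lineage markers CD4, CD8, TCRβ, TCRγδ and those of B, myeloid and NK cells. The comparison addresses which transcripts depend on PKBα at this stage.

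PKB is a serine/threonine kinase that is recruited to the membrane by the lipid product of phosphoinositide 3-kinase (PI3K) and activated there by PDK1. Among its known substrates are FOXO transcription factors, which it keeps out of the nucleus. At the DN3 stage the TCRβ chain is rearranged by RAG proteins and, paired with pre-TCRα, forms the pre-TCR, whose signals together with Notch drive survival, nutrient uptake and proliferation at β-selection.

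Each array holds 45101 probe sets as GC-RMA values, background-corrected and normalized array signals on a linear scale. The median value of an array lay between 58.5 and 70.5 and the share of probe sets above 20 between 69.7% and 72.6%. Any pair of the 8 arrays correlated at 0.911 to 0.931 (Spearman, across probe sets). The difference between the 3' and 5' probe sets of β-actin, which reflects RNA integrity and amplification, was 2.61 to 3.10 in PKBα+/+ and 2.50 to 3.11 in PKBα-/- cells on the log2 scale. The defining DN3 transcripts were high on every array: Notch1 read at least 21923, Dntt at least 19835, Rag1 at least 13503, Il2ra (CD25) at least 6899, Notch3 at least 4860, Ptcra at least 4420 and Rag2 at least 2235. The label of DN3 cells was thus borne out by its markers. Changes are given as log2 of PKBα-/- over PKBα+/+, averaged over the 4 pairs and tested with limma with the pair as a block. A probe set was tested when at least 1 animal of a pair read above 20 in at least 3 pairs, and called past the threshold where limma's p after Benjamini-Hochberg adjustment was below 0.05.

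The deleted gene was the strongest signal. In the order of pairs 1 to 4, the Akt1 probe set 1416657_at read 1324, 2007, 1635 and 1198 in PKBα+/+ and 5.18, 3.37, 2.01 and 27.3 in PKBα-/- cells. Every mutant value on it lay far below every control. A second Akt1 probe set, 1425711_a_at, read 205, 157, 254 and 175 against 12.4, 32.5, 1.25 and 0.901 and also passed. A further one, 1440950_at, read 141, 134, 120 and 176 against 53.3, 59.0, 60.9 and 12.3, without overlap but not past the threshold (log2 change of -1.85, limma adjusted p = 0.281). Akt2, which encodes the isoform PKBβ, had log2 changes of -0.58, -0.03 and 0.09 on its 3 probe sets, none past the threshold. Of 29 other genes of the PI3K and PKB pathway, none passed, and 1 had an unadjusted p under 0.05, Tbc1d4, a PKB substrate in glucose transporter traffic, with a log2 change of 0.28 (-0.20 on its second probe set).

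Of 33962 probe sets tested, 13 passed (0.0383%), 6 of them higher (0.0177%) and 7 lower (0.0206%) in PKBα-/- cells. Besides Akt1 they represent the interferon-inducible genes Rsad2, Ifit1 and Iigp1, the α-globins, and 1 probe set of Becn1 on the lower side. On the higher side they represent Cd163l1, Mpzl2 with 2 probe sets, Ctla4, Zfp711 and 1 probe set of Rpl7. Each of the 13 had 1 direction throughout the 4 pairs, and in 8 of them the values of the genotypes did not overlap (direction in 4 of 4 pairs was lower for 6.98% and higher for 5.51% of all probe sets, and 1.06% had all PKBα-/- arrays below all PKBα+/+ arrays, and 0.68% the opposite). The count rests on the pair block and on limma's trend of the variance with the level: 1 probe set passed without the block, and 0 without the trend (1591 at an unadjusted p under 0.05, smallest limma adjusted p of 0.394). At an unadjusted p under 0.05 stood 1642 probe sets (4.83%), 759 higher (2.23%) and 883 lower (2.6%).

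**Figure D1:**
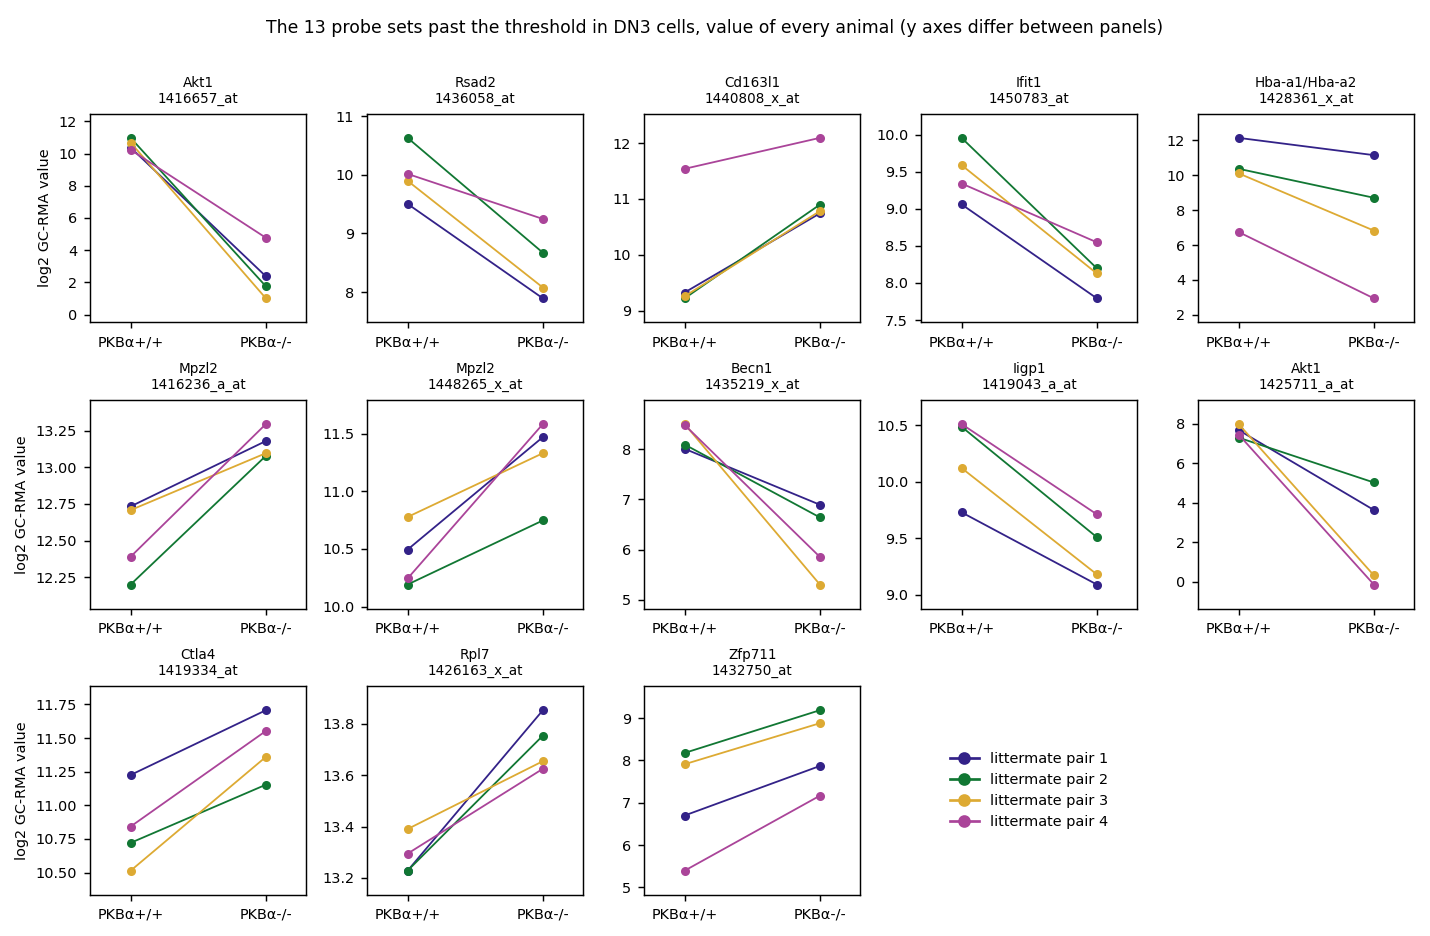
Value of every DN3 sample on the log2 scale for the 13 probe sets past the threshold, with 1 line per littermate pair from the PKBα+/+ to the PKBα-/- animal and a y axis of its own in each panel. Every line runs the same way within a panel, and in the Cd163l1 panel pair 4 (2978 and 4375) lies above the other 3 pairs.

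Transcripts inducible by type I interferon had mostly lower values in PKBα-/- DN3 cells. Interferons signal through JAK kinases to the transcription factor complex ISGF3, which binds the interferon-stimulated response element (ISRE) in promoters, and thymocytes are known to carry a basal level of this response. In 4 lists together, 61 interferon-inducible genes were tested, each at its probe set with the highest mean. The lists include genes that the paper had already reported as lower in these same DN3 arrays. These are Rsad2, Ifit1, Iigp1, Oas1a, Oasl2, Rtp4, Usp18 and Eif2ak2, so the counts below are not independent of that report. Of these, 54 had a value below 0 (51.4% of all 14474 genes tested), and 31 were lower in 4 of 4 pairs (6.85% of all genes). At an unadjusted p under 0.05 stood 26 lower and 1 higher member (2.69% and 2.46% of all genes, 5.15% in either direction). In 13 members all PKBα-/- arrays read below all PKBα+/+ arrays (1.08% of all genes), and in none above (0.767%). Past the adjusted threshold were 3, all lower (0.0276% of all genes, 0.0553% in either direction), and 8 met the fold and paired-p part of the study's criteria, a paired p of at most 0.05 and 1.5-fold or more in 3 pairs (1.24% of all genes in either direction, 0.774% lower). The detection call that the study also required was not applied here. The median log2 change was -0.22 over the lists, against -0.01 over all genes, and -0.21, -0.33, -0.29 and -0.12 in pairs 1 to 4. Lower transcript levels per cell and fewer expressing cells cannot be told apart in these sorted pools.

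The IFIT proteins, which bind foreign RNA, and viperin (Rsad2), which makes a chain-terminating nucleotide, were the group with the largest changes. Rsad2 read 726, 1586, 954 and 1036 in PKBα+/+ and 238, 408, 270 and 608 in PKBα-/- cells of pairs 1 to 4. It fell by 1.54 (standard error 0.17, limma adjusted p = 0.000539) without overlap between the genotypes, and its other 2 probe sets had changes of -1.09 and -1.08.

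Ifit1 read 534, 994, 770 and 649 in PKBα+/+ and 222, 294, 280 and 374 in PKBα-/- cells. It fell by 1.32 (standard error 0.17, adjusted p = 0.00224), again without overlap. For both genes pair 4, the oldest, had the highest mutant value and the smallest change.

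Ifit3 read 123, 164, 126 and 93.9 against 48.8, 46.5, 35.2 and 22.7, which gives -1.76 on the log2 scale (limma adjusted p = 0.104, not passed). Here pair 4 showed the largest difference. Cmpk2, a mitochondrial nucleotide kinase encoded next to Rsad2, read 136, 183, 94.4 and 113 against 45.2, 34.6, 41.6 and 107, a log2 change of -1.31 (adjusted p = 0.67), with -0.41 on its second probe set. Ifit2 stood apart from its family: it read 1163, 1131, 1081 and 878 against 1047, 959, 1042 and 1009, a log2 change of -0.06.

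To show the element through which such genes are known to be induced, the stretch from 160 bases upstream to the base before the transcription start is printed for 4 of the lower genes and for Gbp7, an interferon-inducible gene that read 6339, 4461, 5125 and 6305 against 5914, 5330, 5026 and 5790 (log2 change of 0.00). The sequences are RefSeq promoters of build GRCm38.p6 and run 5′ to 3′ on the strand of the gene. Capitals mark matches to the ISRE core, which is GAAA followed by any 2 bases and GAAA, or to its reverse complement, TTTC followed by any 2 bases and TTTC. Both strands were searched, matches may overlap, and the 2 matches of Oas1a share their middle bases.
Rsad2 (chr12:26456453-26456612, minus strand): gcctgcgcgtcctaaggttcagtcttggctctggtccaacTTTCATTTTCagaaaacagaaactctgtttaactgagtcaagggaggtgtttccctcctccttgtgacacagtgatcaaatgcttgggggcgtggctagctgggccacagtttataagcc
Ifit1 (chr19:34640729-34640888, plus strand): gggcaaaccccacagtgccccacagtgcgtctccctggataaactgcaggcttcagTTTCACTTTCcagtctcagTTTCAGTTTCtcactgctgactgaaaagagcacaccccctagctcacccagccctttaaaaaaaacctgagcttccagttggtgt
Ifit3 (chr19:34583369-34583528, plus strand): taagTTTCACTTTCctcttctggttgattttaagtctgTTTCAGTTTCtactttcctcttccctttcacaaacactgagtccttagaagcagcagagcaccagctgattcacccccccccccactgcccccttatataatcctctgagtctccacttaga
Oas1a (chr5:120907526-120907685, minus strand): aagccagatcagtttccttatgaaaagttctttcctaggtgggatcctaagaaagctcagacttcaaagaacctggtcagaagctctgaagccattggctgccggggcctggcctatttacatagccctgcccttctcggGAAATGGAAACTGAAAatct
Gbp7 (chr3:142530176-142530335, plus strand): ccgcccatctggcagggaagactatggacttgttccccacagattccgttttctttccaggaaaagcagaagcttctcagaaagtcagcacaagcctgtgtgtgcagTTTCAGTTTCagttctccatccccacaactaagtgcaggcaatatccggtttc

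The matches of Ifit1 end 95 and 76 bases before the start, those of Ifit3 147 and 113, that of Rsad2 111, that of Gbp7 44 and those of Oas1a 11 and 5. The table of RefSeq promoters covers 250 bases before and 50 after each start. The motif was found in 3.44% of its 32851 promoters and in 3.66% of the 11621 tested genes with a promoter there. Of the 61 interferon-inducible genes, 45 matched a promoter, and 22 of them held the motif (48.9%). Among the members with lower values at an unadjusted p under 0.05 the share was 9 of 19 (47.4%), and among the other members 13 of 26 (50%). Over all tested genes the motif was in 8.01% of the 312 lower at an unadjusted p under 0.05 and in 4.01% of the 274 higher. Without the interferon lists it was in 5.46% of 293 lower genes.

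The OAS family makes or resembles the enzymes of 2′-5′ oligoadenylate synthesis, which activate RNase L. All 7 members tested had values below 0, with a median of -0.27, and 3 had an unadjusted p under 0.05. Oas1a read 551, 648, 466 and 681 in PKBα+/+ and 346, 351, 285 and 352 in PKBα-/- cells, a log2 change of -0.80 (adjusted p = 0.076). The genotypes did not overlap. Oasl2 with -0.70 and Oasl1 with -0.66 were likewise lower in 4 of 4 pairs without overlap, whereas Oas2 had -0.27 and Oas1b -0.09.

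Among the GTPases, Iigp1, an immunity-related GTPase of pathogen vacuoles, read 848, 1433, 1112 and 1457 in PKBα+/+ and 545, 728, 579 and 837 in PKBα-/- cells. It fell by 0.84 (standard error 0.12, adjusted p = 0.00647), and its other probe set had a change of -0.88. Mx1, a dynamin-like antiviral GTPase, read 181, 148, 175 and 132 against 86.0, 53.4, 55.5 and 118, a log2 change of -1.09 (adjusted p = 0.617). The guanylate-binding proteins were mixed: the log2 change was -0.18 for Gbp6, 0.24 for Gbp2, 0.13 for Gbp3 and 0.00 for Gbp7. Among the other immunity-related GTPases it was -0.22 for Irgm1, -0.20 for Irgm2, -0.05 for Igtp and 0.00 for Ifi47. Over the 10 genes of this list the median was -0.11, with 3 lower and 1 higher at an unadjusted p under 0.05.

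The remaining list held 39 tested genes of antiviral sensing, ubiquitin-like modification and transcription. Of these, 35 had values below 0 and 16 an unadjusted p under 0.05, all lower, while none passed the adjusted threshold. Usp18, the protease that removes ISG15 and restrains the receptor, read 630, 1159, 735 and 597 against 384, 406, 346 and 602, so that pairs 1 to 3 were lower and pair 4 level. Irf7, the factor that amplifies the type I response, read 262, 316, 342 and 260 against 188, 121, 207 and 136, a log2 change of -0.88 without overlap.

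Ifih1, the RNA sensor MDA5, read 4244, 4099, 3794 and 4791 against 3670, 3556, 2667 and 3042 (log2 change of -0.39). Rtp4 read 2000, 2463, 2360 and 1982 against 1612, 1774, 1490 and 1596 (log2 change of -0.44). Both were lower in 4 of 4 pairs without overlap. Phf11d, with a log2 change of -0.89, and the exonuclease gene Isg20, with -0.37, had no overlap either, and Samd9l, with -0.49, was lower in 4 of 4 pairs.

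**Figure D2:**
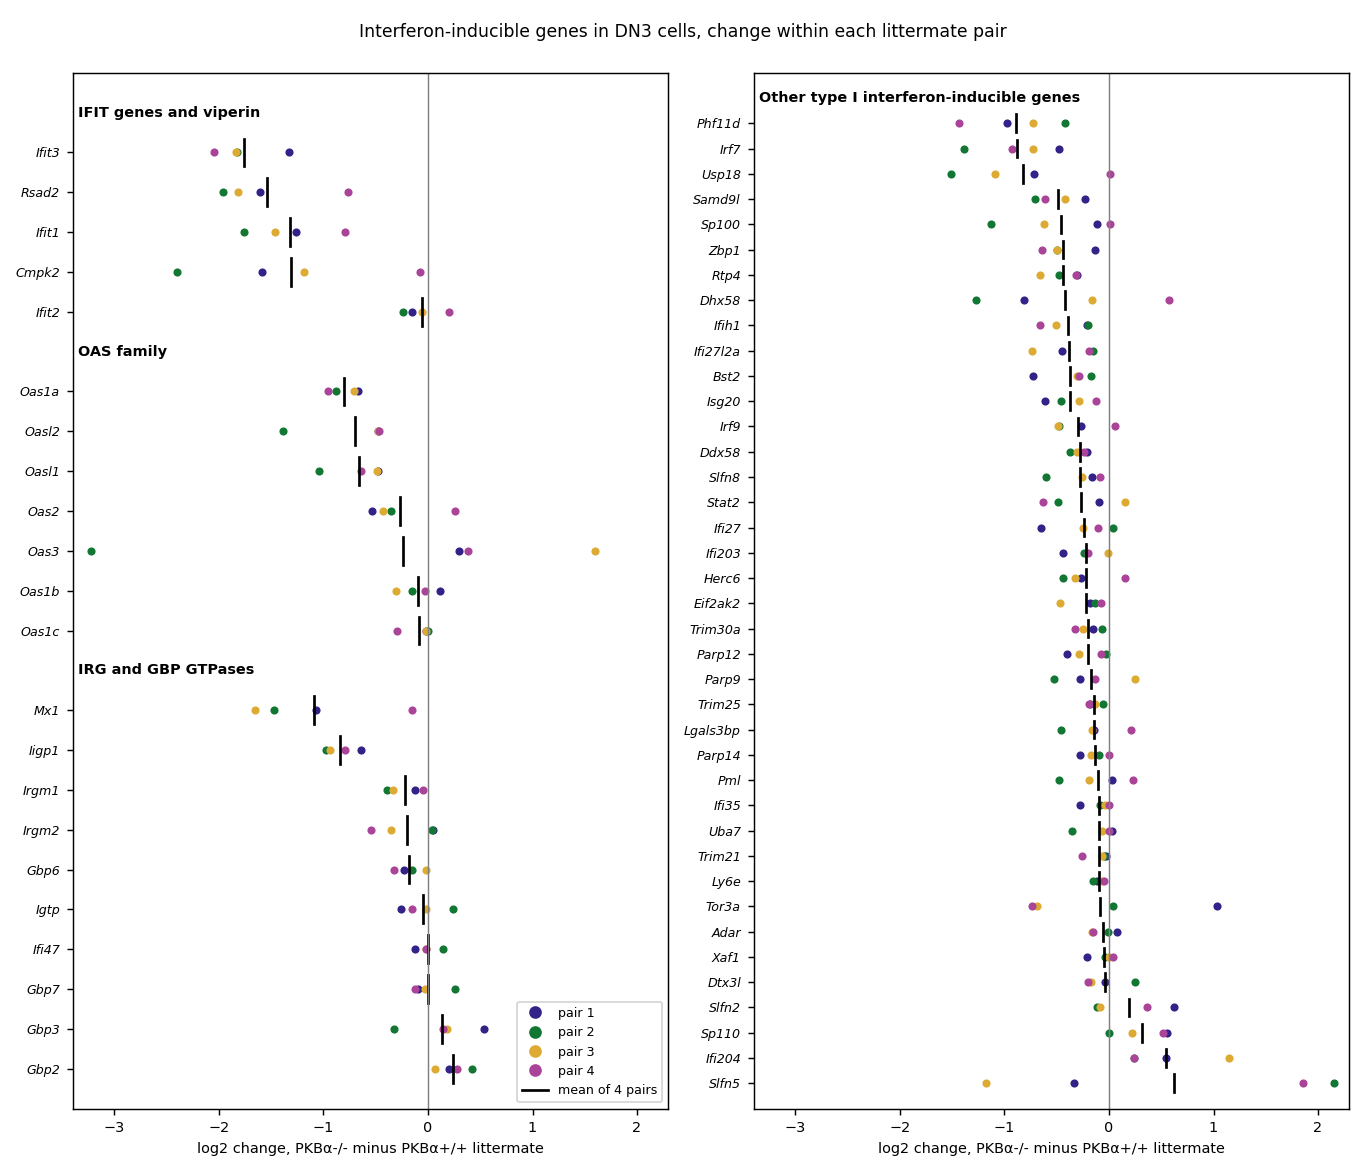
Log2 change of the 61 interferon-inducible genes tested in DN3 cells, 1 point per littermate pair and a bar at the mean, grouped by list. Most points lie to the left of 0, 31 genes have all 4 points there, and Ifit2 and most GBP genes lie around 0.

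Genes that carry the interferon signal had a median near 0. Of 16 interferon receptors, JAK kinases, further signalling proteins and IRFs tested, none had an unadjusted p under 0.05 (median 0.01), with log2 changes of -0.19 for Ifnar1, a chain of the type I receptor, and -0.09 for Irf1. Irf9, the DNA-binding part of ISGF3 and itself inducible, had -0.30 and counts among the lower members above. Of 14 genes of MHC class I presentation and the immunoproteasome, 11 had values below 0 (51.4% of all genes). Lower at an unadjusted p under 0.05 were 2 (2.69% of all genes): Nlrc5, the transactivator of these genes, with -0.52, and Tapbpl, a peptide editor, with -0.33.

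Markers of other cell types were measured beside these lists. The summed level of 11 neutrophil markers was 149 to 1634 in PKBα+/+ and 130 to 876 in PKBα-/- samples, and none of the 11 read above 20 on all arrays. Of 7 neutrophil markers tested, 6 had values below 0 (51.4% of all genes), with a median of -1.20. At an unadjusted p under 0.05, 2 were lower (2.69% of all genes) and none higher. S100a8 read 563, 107, 470 and 18.4 against 265, 27.5, 4.57 and 21.7, so that neutrophil transcripts were lower in the mutants of pairs 1 to 3. In pair 4 the neutrophil sum was higher in the PKBα-/- sample (249 against 149). The log2 differences of Rsad2 and Ifit1 in that pair were -0.77 and -0.79, the smallest of their 4 pairs, as was the median of the interferon lists (-0.12). Ifit3, Oas1a and Ifih1, in turn, had their largest differences in pair 4, at -2.05, -0.95 and -0.66. The sum of 23 dendritic cell and macrophage markers was 3988 to 6202 in PKBα+/+ and 3948 to 7382 in PKBα-/- samples. Of 22 such markers tested, 11 had values below 0, with a median of -0.04, and 6 were higher and 1 lower at an unadjusted p under 0.05 (2.46% and 2.69% of all genes). Members lay on both sides: Adgre1, which encodes the macrophage marker F4/80, had a log2 change of -0.59 and the MHC class II gene H2-Ab1 had -0.69, 0.17 and 0.47 on its 3 probe sets, none past the threshold. H2-Aa read 87.1, 51.9, 124 and 107 against 381, 204, 146 and 144 (log2 change of 1.19, adjusted p = 0.492), and Cd74 45.6, 37.5, 53.3 and 77.1 against 123, 98.9, 83.1 and 84.8 (log2 change of 0.90). The summed levels of the IFIT, OAS and remaining type I lists did not overlap between genotypes. Those of the IRG and GBP list did, at 29086 to 33695 in PKBα+/+ and 26460 to 30271 in PKBα-/- samples. The part of these other cells in the interferon result was not tested.

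The α-globin probe set 1428361_x_at, which binds Hba-a1 and Hba-a2, read 4475, 1315, 1097 and 107 in PKBα+/+ and 2256, 417, 113 and 7.73 in PKBα-/- samples. It fell by 2.43 (standard error 0.31, adjusted p = 0.00224), yet its level differed more between litters than between littermates: every sample of pair 1 was above every sample of the other pairs. A second probe set of both genes had a log2 change of -1.37 (adjusted p = 0.239) and one of adult β-globins -2.00 (adjusted p = 0.076). Globin transcripts mark erythrocytes and their precursors, which the sort on CD25-positive cells would remove. Of 12 erythroid markers tested, 9 had values below 0 (51.4% of all genes), with a median of -0.39. The summed level of 15 such markers was 5641 to 11496 in PKBα+/+ and 5825 to 10784 in PKBα-/- samples. Their part in the α-globin result was not tested.

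**Figure D3:**
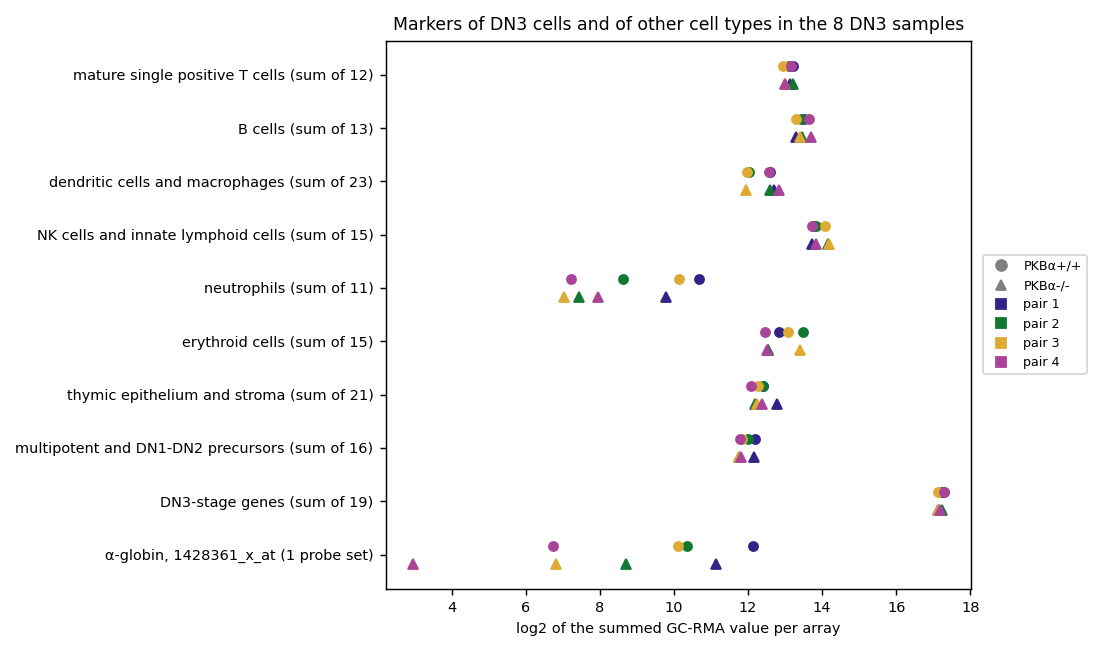
Log2 of the summed values of marker genes for DN3 cells and for other cell types, and of the α-globin probe set, in each of the 8 DN3 samples, with circles for PKBα+/+, triangles for PKBα-/- and 1 colour per pair. DN3-stage genes vary little between samples (142391 to 161055), whereas the neutrophil sum (130 to 1634) and α-globin (7.73 to 4475) vary widely.

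Among genes of T cell biology, Ctla4, the receptor that opposes CD28 costimulation, read 2394, 1688, 1463 and 1836 in PKBα+/+ and 3342, 2277, 2628 and 3004 in PKBα-/- cells. It rose by 0.62 (limma adjusted p = 0.0196, standard error 0.10). The mutant of pair 2 (2277) read below the control of pair 1 (2394), which was the single overlap between the genotypes. It was the 1 gene of 22 costimulators and inhibitors with an unadjusted p under 0.05.

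Cd163l1, a scavenger receptor of γδ T cells and their precursors, read 641, 596, 611 and 2978 against 1712, 1908, 1761 and 4375. It rose by 1.29 (standard error 0.14, adjusted p = 0.000539), and its other probe set had a change of 0.81. The 2 samples of pair 4 read higher than all others of their genotype. Of 17 γδ-programme genes tested, it alone passed. Id3, which supports γδ fate after strong receptor signals, had a log2 change of 0.49 and Etv5 0.64 (-0.17 and -0.77 on its other probe sets), higher in 3 of 4 pairs each, while Sox13, a factor of the γδ lineage, had -0.28.

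Mpzl2, also named Eva1, an adhesion molecule of thymocytes and thymic epithelium, read 6809, 4709, 6691 and 5370 against 9272, 8646, 8755 and 10046 on probe set 1416236_a_at. It rose by 0.65 (standard error 0.09, adjusted p = 0.0041) without overlap. The second probe set rose by 0.86 (adjusted p = 0.00647) and another had a change of 0.57. None of the other 13 immunoglobulin-fold adhesion genes passed.

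Ccr9, the CCL25 receptor of thymocyte homing, read 2612, 4564, 3226 and 8344 against 1186, 4098, 2026 and 5846 on probe set 1427419_x_at, a log2 change of -0.62 (adjusted p = 0.076). All 5 of its tested probe sets had values below 0, from -0.88 to -0.36. Itgae, the αE integrin CD103, read 207, 367, 485 and 745 against 91.4, 265, 177 and 619, a log2 change of -0.84 (adjusted p = 0.35) with -0.39 on its second probe set. On the probe sets whose values are given, both varied several-fold between litters and were lower within each pair. Ccr9 on 1421919_a_at and 1442758_at and Itgae on 1449216_at were lower in 3 pairs and higher in 1.

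Of 37 genes of DNA precursor synthesis and replication, 34 had values above 0, with a median of 0.10 (51.4% of all genes had values below 0). An unadjusted p under 0.05 was found for 8, all higher (2.46% of all genes). In 9 all 4 pairs were higher (5.93% of all genes). None passed the adjusted threshold. Prim1, the DNA primase subunit, read 6508, 3829, 4314 and 4113 against 7513, 5138, 5075 and 5348 (log2 change of 0.31, and 0.03 on its second probe set). It was higher in 4 of 4 pairs, as were Dck, the deoxycytidine kinase, with 0.23, the licensing factor Cdc6 with 0.22 and Rad54b with 0.42.

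Rrm2, the regulated subunit of ribonucleotide reductase, read 1383, 1147, 1266 and 790 against 2589, 1756, 1622 and 1136 on probe set 1448226_at (log2 change of 0.60, adjusted p = 0.076), and its other probe sets had 0.20 and 0.24. Nme1, a nucleoside diphosphate kinase, stood near 1126 to 1697 in 5 samples and near 15862 to 17083 in the PKBα+/+ sample of pair 3 and the PKBα-/- samples of pairs 2 and 3. Its log2 change of 0.88 rests on pair 2, and its other probe set had -0.04.

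Of 36 genes of mitosis and chromosome segregation, 33 had values above 0, with a median of 0.13 (51.4% of all genes had values below 0). Higher at an unadjusted p under 0.05 were 3 (2.46% of all genes). Ccnb2, a mitotic cyclin, read 4875, 3227, 2924 and 1874 against 4922, 3957, 3684 and 2990 (log2 change of 0.33). Ndc80 of the outer kinetochore had 0.39 and Cenpq 0.23. Cdkn1a, which encodes the inhibitor p21, had values on the other side: it read 1378, 2300, 2433 and 1990 against 786, 1566, 1559 and 1864, lower in 4 of 4 pairs with a log2 change of -0.52 (adjusted p = 0.253). Of 23 p53 targets tested it was the single one with an unadjusted p under 0.05. Of 24 G1 cyclins, kinases and inhibitors, 9 had values below 0 and 1 in each direction an unadjusted p under 0.05 (median 0.04). The number of values above 0 was 27 of 37 for replication without pair 3 and also without pair 4, and for mitosis 24 of 36 without pair 3 and 31 without pair 4.

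Sterol and fatty acid synthesis had 23 of 28 values below 0 (51.4% of all genes) and 4 with an unadjusted p under 0.05, all lower (2.69% of all genes): Dhcr7, the last enzyme of cholesterol synthesis, with a log2 change of -0.25, Hmgcs1, which makes HMG-CoA, with -0.17, the squalene epoxidase Sqle with -0.24 and Hsd17b7 with -0.25. The other 3 probe sets of Hsd17b7 had -0.11, 0.22 and 0.94. The median was -0.08. Without pair 1 the number of values below 0 was 18 of 28 and 1 gene had an unadjusted p under 0.05.

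Of 23 FOXO factors and targets, none passed, and 4 were higher and 1 lower at an unadjusted p under 0.05 (2.46% and 2.69% of all genes). Foxo1 read 535, 572, 356 and 727 against 597, 961, 610 and 853 (log2 change of 0.48), but its other 2 probe sets had -0.02 and 0.06. Klf2, a factor of T cell trafficking, had 1.32 at values of 4.87 to 129 in PKBα+/+ and 68.8 to 254 in PKBα-/- cells. The antiproliferative gene Btg1 had 0.20 and Trib2 0.33, whereas the stress gene Gadd45b had -0.70. The list as a whole had a median of 0.01, with 11 of 23 values below 0.

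Among transcripts that build the pre-TCR and transmit its signal, log2 changes ran from -0.27 to 0.24. None of these 30 genes had an unadjusted p under 0.05 (median -0.03), with a log2 change of -0.18 for Ptcra. Among 20 Notch receptors and targets, 2 were higher and 1 lower at an unadjusted p under 0.05 (2.46% and 2.69% of all genes). They were Nrarp, a feedback inhibitor of Notch, with 0.54 in 4 of 4 pairs (-0.11 on its second probe set), Dtx1 with 0.25 in 3 of 4 pairs, and Bcl11b with -0.14. Notch1 itself had -0.07. Of 19 DN3-stage genes, Dntt, the terminal transferase, had -0.17 and Spib -0.34, both lower in 4 of 4 pairs, and the median was -0.03. Cd8a, which marks the following stage, read 267, 281, 156 and 282 in PKBα+/+ and 82.1, 318, 184 and 16.4 in PKBα-/- cells, lower in pairs 1 and 4 and higher in pairs 2 and 3 (log2 change of -1.35, not past the threshold). All 5 of its tested probe sets had values below 0, from -1.78 to -0.37.

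Glycolysis and nutrient uptake had 1 of 26 genes with an unadjusted p under 0.05 and a median of 0.03. BCL2 family genes had none of 15 and a median of -0.09, and autophagy genes none of 32 and a median of -0.03. Of 27 tested neighbours of Akt1 on chromosome 12, the region inherited together with the deleted allele, none had an unadjusted p under 0.05 (median 0.01).

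**Figure D4:**
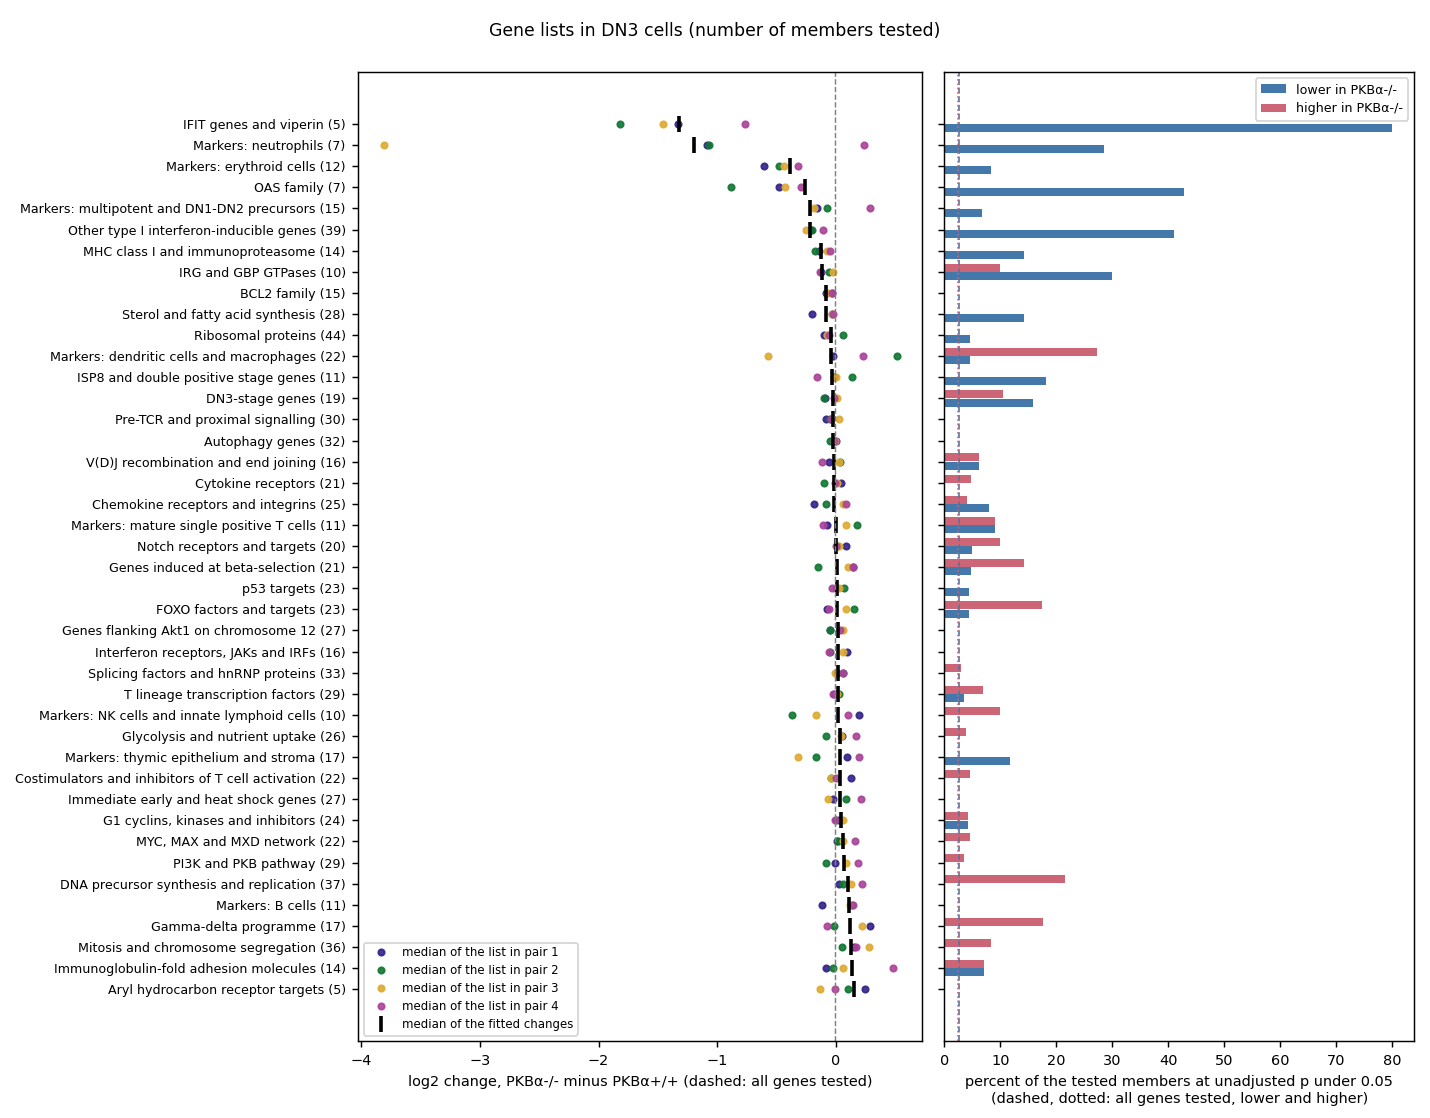
Gene lists in DN3 cells, with the number of members tested in brackets. The left panel gives the median log2 change of each list in every littermate pair (points) and the median of the fitted changes (bars) beside that of all genes tested (dashed line), and the right panel the percentage of members at an unadjusted p under 0.05 in each direction beside that of all genes (dashed and dotted lines). The IFIT, OAS and remaining type I lists have all 4 pairs left of 0 and the highest percentages of lower members. Among the other lists, IRG and GBP GTPases, MHC class I, sterol synthesis, the BCL2 family and erythroid markers also have all 4 pairs left of 0, and replication, mitosis, Notch genes and the MYC network all 4 right of 0.

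For Becn1 and Rpl7, which passed on 1 probe set each, the other probe sets did not pass, and Ctla4, Ifit1 and Zfp711 had 1 tested probe set each. Becn1, which encodes the autophagy protein beclin 1, read 258, 273, 363 and 359 against 119, 99.8, 39.4 and 57.8 on probe set 1435219_x_at, which fell by 2.10 (standard error 0.30, adjusted p = 0.00647). Its other 4 tested probe sets had changes of -0.61, -0.04, 0.09 and 0.02. Rpl7, a ribosomal protein, rose by 0.44 (adjusted p = 0.0224) on 1426163_x_at, whereas its other 2 probe sets had -0.03 and -0.08. Names ending in _x_at mark probe sets that may bind several transcripts, and 5 of the 13 past the threshold end so, against 5.78% of those tested. Zfp711, an X-linked zinc finger gene with 1 tested probe set, read 104, 290, 241 and 42.0 against 234, 584, 472 and 144 and rose by 1.23 (standard error 0.21, adjusted p = 0.0407). Without pair 1 or without pair 2, Rpl7 (adjusted p = 0.162 and 0.12) and Zfp711 (adjusted p = 0.062 and 0.205) did not pass.

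Next to the threshold, probe sets higher in 4 of 4 pairs belonged to Ptbp1 (log2 change of 1.33, but 0.10 and -0.71 on its other probe sets), Mink1 (0.86), Tfpi (0.51, and 0.39 to 0.49 on its 3 others), Cct4 (1.21, but -0.01 to 0.27 on its 6 others), Uck2 (0.47, but from -0.19 to 0.57 on the others) and Tpm3 (0.30, and 0.00 to 0.18 on the others). Lower in 4 of 4 pairs were also Cttn, the actin regulator cortactin (-1.19, and 1.41, -1.34 and -0.39 on its other probe sets), and Klf9 (-0.63, and -1.72 to 0.63 on the others). None of these 8 passed (limma adjusted p from 0.0867 to 0.322). The same ranking also named Ddx39b (0.90), Sytl4 (0.68), Pde2a (0.64), A630023P12Rik (0.90) and A930006K02Rik (1.08) on the higher and Gm20559 (-0.76) on the lower side.

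The fold and paired-p part of the study's selection, which asked for a paired p of at most 0.05 and for 3 or more pairs that differed by 1.5-fold or more and the same way, took 458 of the 33962 probe sets (1.35%), 176 higher (0.518%) and 282 lower (0.83%). The study also required a detection call, which was not applied here, so that these are not the study's own genes. In 388 of them (84.7%) both genotypes had a mean under 100, which was the case for 39.4% of all probe sets tested and for none of the 13 that passed limma. The 12 selected genes with the largest increases, led by 6720483E21Rik with a log2 change of 3.21, had mean values of at most 34.0 in either genotype, and those with the largest decreases after Akt1, led by Slc13a3 with -3.98, of at most 36.2. Both criteria shared 9 probe sets. Of the 4 left out by the selection, the Mpzl2 probe sets, Ctla4 and Rpl7, all rose. After Benjamini-Hochberg adjustment the paired test of the methods left 0 of 33962 (1486 at p up to 0.05, smallest adjusted p of 0.726).

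**Figure D5:**
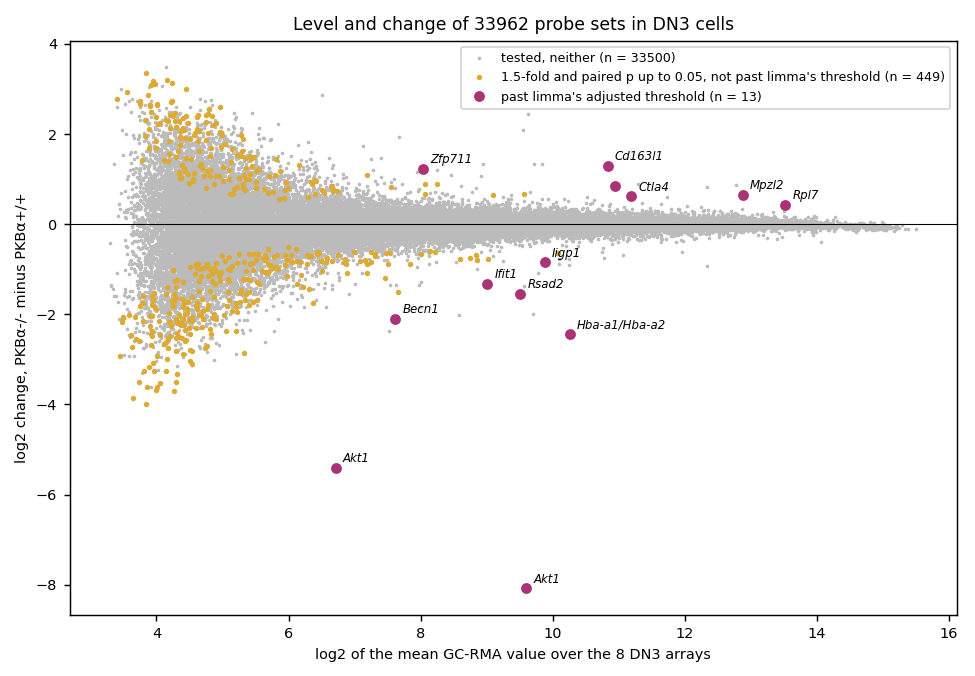
Log2 change in PKBα-/- DN3 cells against the log2 mean value over the 8 arrays for 33962 probe sets, with those chosen by fold and paired test alone in yellow (n = 449) and those past limma's adjusted threshold in purple (n = 13). Most yellow points lie at the left, at low levels, and the Akt1 probe set at -8.08 is the lowest point.

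Whether the effect of PKBα loss differed in ISP8 cells of the same animals was tested over 16 arrays with the animal as a block. None of 36835 probe sets passed (0%, 1750 at an unadjusted p under 0.05, 4.75%, smallest limma adjusted p of 0.961). With the pair within each subset as a further block, 1 passed (0.00271%, 2483 at an unadjusted p under 0.05, 6.74%). It belongs to Nrip2, a nuclear receptor interacting protein named here after its values were seen, with log2 changes of 0.71 in DN3 cells, higher in 2 of 4 pairs, and -3.77 in ISP8 cells, lower in 4 of 4 (limma adjusted p of the difference = 0.00018). Of the 13 DN3 probe sets, the 2 of Akt1 also passed in ISP8 cells, where 5 of 34016 passed in all (0.0147%). Log2 changes in ISP8 cells were -1.0 for Rsad2, -0.88 for Ifit1, -1.09 for Iigp1, 0.46 for Mpzl2 (1416236_a_at) and 1.41 for Ctla4. They were 0.43 for Cd163l1, 0.03 for α-globin, -0.26 for Becn1, -0.07 for Rpl7 and -0.54 for Zfp711. Of the 61 interferon-inducible genes, 42 had values below 0 in ISP8 cells with a median of -0.14, and 5 had an unadjusted p under 0.05 for the difference between the subsets (smallest adjusted p of 0.961), or 10 with the pair block (smallest adjusted p of 0.699). Rsad2, Ifit3, Irf7 and Phf11d were among these 5, with ISP8 log2 changes of -1.0, -0.14, 0.02 and 0.38. By contrast, Ifi35 had -0.10 in DN3 and -0.41 in ISP8 cells.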

How the data were processed

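Total RNA of sorted DN3 cells (cell numbers equal within a pair) was amplified in 2 cycles and hybridised to Affymetrix mouse genome 430 2.0 arrays. The authors made the deposited intensity values with GC-RMA (named as GCRMA, without a version, in the submitters' processing notes) in the Refiner software and gave them on a linear scale. The deposited table of all 16 arrays' values was read unchanged, and values were taken to log2 without an added constant. Replicates are separate animals, and the labels name littermate pairs. Deviations from the group means correlated at 0.436 to 0.492 within pairs and at -0.332 to 0.120 between animals of different pairs and genotypes (20105 probe sets). Such deviations sum to 0 within a genotype, which by itself pushes the values between pairs down. Animals of a pair also share age and sex, so these correlations do not test littermate status. No scan date that splits the arrays was given. The number of arrays limits the precision.

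Genotypes were compared with limma 3.58.1 in R 4.3.3 (lmFit with the pair as a block, eBayes with a trend), over all probe sets that exceeded 20 in either littermate of 3 or more pairs, with Benjamini-Hochberg adjustment and a threshold of 0.05. The difference from ISP8 cells came from 16 arrays with the animal as a block; the pair within each subset was added as a block after seeing the data. The paired t-test of the methods and their fold criterion were computed on the same values; the authors' detection calls were not used. Of 45101 probe sets, 34958 carry 1 gene symbol, 932 several and 9211 none. A gene in a list is its probe set with 1 symbol and the highest mean over the 8 arrays. Genes named are those past the threshold, the 12 next in each direction by p with 4 of 4 pairs, the 12 with the largest selected changes, up to 6 members of each list by p, the interferon lists, Ccr9 and Itgae. The cells, lists and tests were chosen with earlier results of these data known. Changes in a list are described by counts beside those over all genes, with no test of the list. Promoters came from a RefSeq table (GRCm38.p6). The limma step was tested on simulated data, and figures were drawn with matplotlib 3.10.9 in Python 3.11.15. Alternatives in filter, added constant, normalization, block, moderation, test, samples and replicates were computed. Counts of list members under these alternatives were added after seeing the data.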

Additional observations from a re-analysis of the deposited data

Results flagged for a closer look

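Among 214 groups of 4 DN3 samples of the named genes, 13 held 1 sample whose gap to the nearest other sample exceeded Dixon's critical value as a share of the range, which chance alone gives in about 1 of 20 groups. Cd163l1 was far higher in pair 4 in both genotypes, at 2978 in the PKBα+/+ and 4375 in the PKBα-/- sample. In pair 1, both samples stood above their groups for H2-Ab1 (227.2 in PKBα+/+, 296.6 in PKBα-/-) and for Gm20559 (703 and 577.4), and the PKBα-/- sample also for Il2ra (10970) and Prim1 (7513). In PKBα+/+ samples, Nme1 was apart at 17080 and Cd8a at 156.4 in pair 3, and Nlrc5 at 642.4 and A630023P12Rik at 56.66 in pair 4. The PKBα-/- sample of pair 3 was apart at 285.1 for Oas1a.

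In 3 named genes every DN3 pair moved one way and every ISP8 pair the other. The ISP8 minus DN3 difference in log2 change was 0.35 for Rag1, -1.776 for Zfp711 and 5.252 for Slc13a3, whose DN3 values were 0.744 to 36.5, with unadjusted limma p of 0.0063, 0.00235 and 0.00078, and none passed adjustment.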

How the results depend on the processing

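The count of 13 probe sets past the threshold (6 higher, 7 lower) became 8 (3 higher) with no filter on low values, 27 (10 higher, 17 lower) with 20 added before log2, 1 (0 higher, 1 lower) with no replicate block, 0 (0 and 0) without the trend in eBayes, 0 (0 and 0) by the paired t-test of the methods and 1 (0 higher, 1 lower) in 1 fit of all 16 arrays. Leaving out each pair gave 12 to 62 (4 to 34 higher, 8 to 28 lower), the 62 without pair 3. The cause was not tested. The fold and paired-p part of the study's criteria took 916 (375 higher, 541 lower) with no filter, since more probe sets near background were then compared. The study itself used a filter on low values and detection calls. In the interferon lists, 16 genes were lower at an unadjusted p under 0.05 with no replicate block and 20 to 25 without 1 pair. Genes higher at that p numbered 1 for replication and 0 for mitosis, and genes lower 0 for sterol synthesis, with no replicate block. Without 1 pair they numbered 5 to 8, 3 to 5 and 1 to 5. Without pair 3 the OAS median was -0.72, and without pair 4 the IRG and GBP median was -0.05. Directions turned for these values: Gbp7 had -0.009519 after quantile normalization and -0.08388 to 0.04283 without 1 pair, Ifi47 -0.05326 to 0.03724, Akt2 (1424480_s_at) -0.1316 to 0.09303, the neutrophil gene S100a9 -3.095 to 0.1645 and Nrip2 -0.6747 to 1.599. Leaving out 1 pair kept every call on Akt1, Rsad2, Ifit1, Cd163l1, α-globin, Mpzl2, Becn1 and Ctla4, whereas Iigp1 was lost once (adjusted p = 0.0571 without pair 2) and Rpl7 and Zfp711 without pair 1 or pair 2 (adjusted p up to 0.162 and 0.205). For the difference between ISP8 and DN3 cells, 1 probe set (Nrip2) passed with the animal and the pair by subset as blocks, and 0 under each other alternative (smallest limma adjusted p of 0.388).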
